A study of Homo sapiens with 12 samples.

Results

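The expression of 9 genes coding for surface antigens that immunotherapies of multiple myeloma bind, or have been built to bind, was examined in MM.1S cells, an established human multiple myeloma cell line. The genes were chosen by name as such antigens, with earlier results of these data known, and they are 9 of the 17710 Ensembl genes measured. They are CD38 (ENSG00000004468_at), SLAMF7 (ENSG00000026751_at), CD48 (ENSG00000117091_at), TNFRSF17 (ENSG00000048462_at), TNFRSF13B (ENSG00000240505_at), GPRC5D (ENSG00000111291_at), FCRL5 (ENSG00000143297_at), SDC1 (ENSG00000115884_at) and CD47 (ENSG00000196776_at). RNA came from 3 experiments, and in each of them cells were left untreated (control) or received the pan-PIM kinase inhibitor PIM447 at 100 nM for 24 h (PIM), pomalidomide at 200 nM with dexamethasone at 5 nM for 15 h (Pd), or all 3 agents at the same doses for 10 h (PIM-Pd). Doses were sub-lethal, with 74 to 81% viability in treated cells. The labels give no culture time for the control. Each of the 4 groups had 3 arrays, 1 per experiment, and the unit is the log2 signal after robust multi-array averaging (RMA). Since exposure time differed between the treated groups, agent and time cannot be told apart in any of the comparisons below.

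Plasma cells and the myeloma cells derived from them carry surface proteins that antibodies, bispecific T cell engagers and chimeric antigen receptor T cells use as docking points. Some of these proteins, though not all, are held at such density by few other cells. CD38 is an ectoenzyme that consumes NAD and the target of daratumumab and isatuximab, SLAMF7 is a self-binding receptor bound by elotuzumab, BCMA (TNFRSF17) is a receptor for the survival ligands APRIL and BAFF, and GPRC5D is an orphan G protein-coupled receptor bound by talquetamab. Pomalidomide redirects the cereblon ubiquitin ligase to the lymphoid transcription factors Ikaros and Aiolos, dexamethasone activates the glucocorticoid receptor, and PIM kinases support growth and translation in myeloma cells. Arrays measure mRNA over the whole population, so surface protein was not measured, and a change in the cells present cannot be told apart from a change of RNA per cell.

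Median log2 signals of the 12 arrays lay between 4.81 and 4.89. The arrays PIM 1, PIM 2 and PIM-Pd 1 stood apart by a smaller spread of their values (SD over probe sets 1.91 for each, against 1.93 to 1.95 for the other arrays), so an alternative fit without them was added after seeing the data, and calls of named genes that it changed are given. Of the plasma cell markers, SDC1 had signals of 9.25 to 9.58 and TNFRSF17 of 9.09 to 9.65 over the 12 arrays. IRF4, also a plasma cell marker, is described below with the other lineage genes. Signals of different probe sets do not measure the relative amounts of their mRNAs, so these signals do not test the labelled cell type.

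Against control, GPRC5D was higher in Pd and in PIM-Pd, CD38 was higher in PIM-Pd, and PIM447 alone moved no member past the threshold. A call is a Benjamini-Hochberg adjusted p under 0.05 over all 17710 probe sets in limma. In Pd 1 of the 9 genes was called, while 960 probe sets (5.42% of those tested) were called in the same comparison, 616 higher and 344 lower. In PIM-Pd 2 of the 9 were called, with a background of 1671 probe sets (9.44%), 782 higher and 889 lower. In PIM limma called 0 of the 9 and 0 of 17710 probe sets (0%), and at an unadjusted p under 0.05 the counts were 0 of the 9 and 1098 of 17710. The unadjusted counts were 2 of the 9 and 2983 of 17710 in Pd, and 3 of the 9 and 3634 of 17710 in PIM-Pd. The median difference of the 9 genes was 0.00 in PIM, 0.08 in Pd and 0.02 in PIM-Pd on the log2 scale, where the medians of all probe sets were 0.01, -0.01 and 0.01. These 3 comparisons share the control arrays. The count in Pd depended on single arrays: without control 1, Pd 1, control 2, Pd 2 or Pd 3, each left out alone, 0 of the 9 were called, and without control 1, Pd 1, control 3 or Pd 3 the number of called probe sets was 522, 520, 608 and 497. The count in PIM-Pd also depended on single arrays: 0 of the 9 were called without control 1 or PIM-Pd 3, 1 without control 2, control 3, PIM 3, Pd 2, Pd 3 or PIM-Pd 2, and the number of called probe sets was 1096 without control 3. No member reached a 2-fold difference in any comparison. Statements below that groups did or did not overlap describe the arrays and are no test. The share of all probe sets that separated likewise was not counted.

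**Figure D1:**
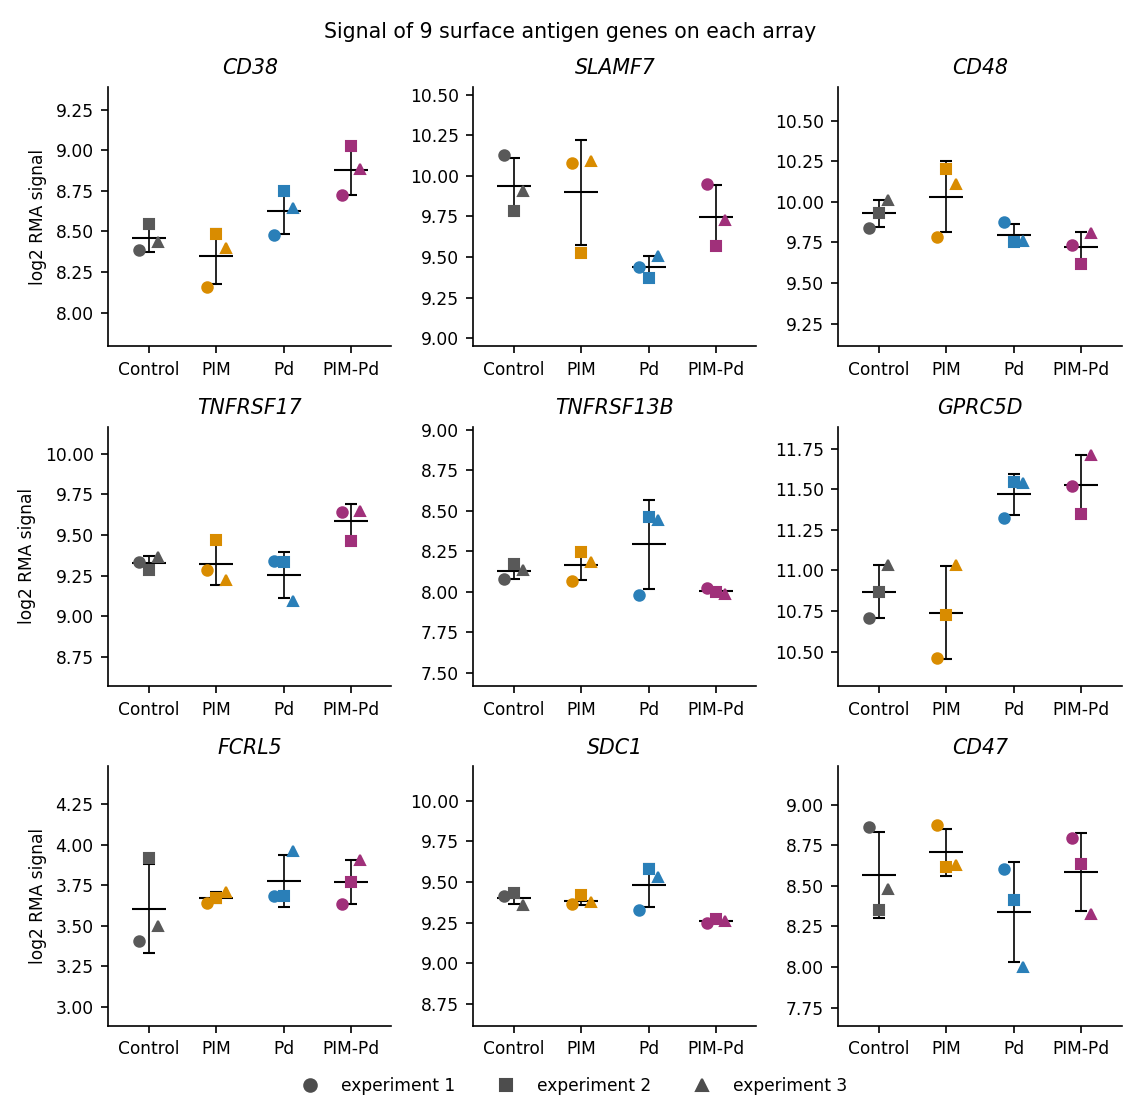
Log2 RMA signal (vertical axis, the same span in each panel) of the 9 genes on the 12 arrays by group, with symbols for experiments 1 to 3, horizontal marks for group means and bars for 1 SD. GPRC5D signals in Pd and PIM-Pd (11.32 to 11.71) lie above all control and PIM signals (10.46 to 11.03), and CD38 signals in PIM-Pd (8.72 to 9.03) lie above all control signals (8.39 to 8.55).

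**Figure D2:**
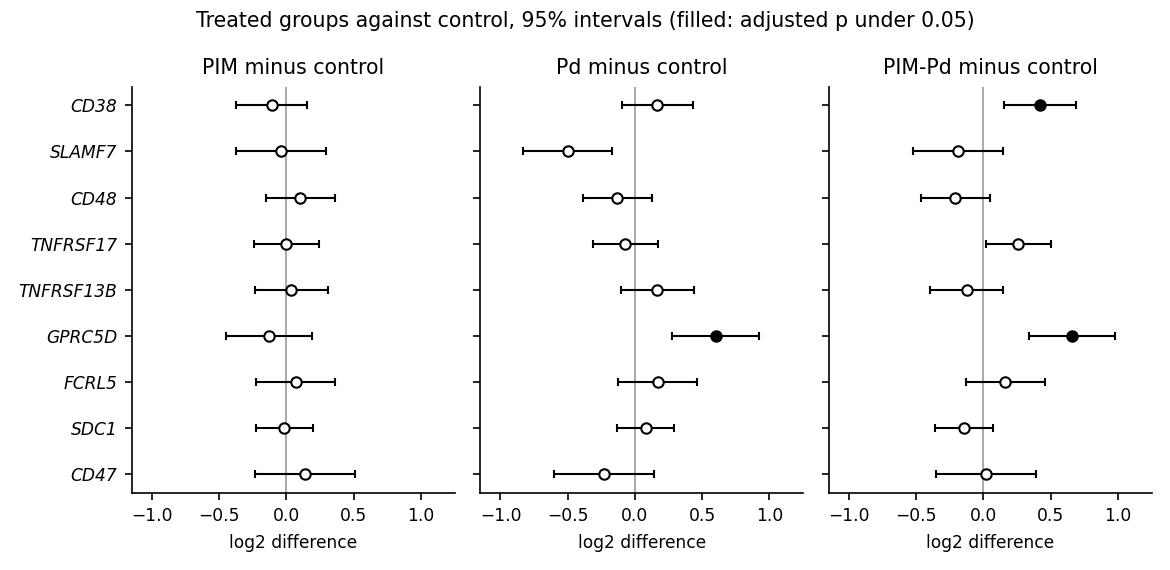
Log2 difference from control (horizontal axis) of the 9 genes in PIM, Pd and PIM-Pd, with 95% intervals from limma, n = 3 arrays per group; filled points passed the adjusted threshold. GPRC5D in Pd and PIM-Pd and CD38 in PIM-Pd are filled, and all 9 intervals in PIM include 0.

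CD38 hydrolyses NAD on the cell surface and produces cyclic ADP-ribose, a calcium messenger. Its log2 signals in experiments 1, 2 and 3 were 8.39, 8.55 and 8.44 in control, 8.16, 8.49 and 8.40 in PIM, 8.48, 8.75 and 8.64 in Pd, and 8.72, 9.03 and 8.88 in PIM-Pd. All 3 PIM-Pd arrays were above all control and PIM arrays, whereas the Pd arrays overlapped with control, PIM and PIM-Pd. The order of group means was PIM (8.35 ± 0.17, SD, n = 3), control (8.46 ± 0.08), Pd (8.62 ± 0.14) and PIM-Pd (8.88 ± 0.15), and neighbours in this order overlapped. The PIM-Pd mean was 0.42 log2 units above control (SE 0.12, 1.34-fold, 95% interval 1.11 to 1.61, adjusted p = 0.0463), and the difference was positive in 3 of 3 experiments, at 0.34, 0.48 and 0.45. With Pd alone the difference was 0.17 (95% interval -0.10 to 0.43, adjusted p = 0.594) and with PIM447 alone it was -0.11 (-0.38 to 0.15, adjusted p = 0.918). Leaving out 1 array gave CD38 differences of 0.10 to 0.24 in Pd and of -0.18 to -0.016 in PIM.

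The call of CD38 in PIM-Pd lay close to the threshold, with adjusted p from 0.0143 to 0.156 over 19 alternatives. It was lost with only the 2 groups compared in the fit (adjusted p = 0.0631), with arrays centred on their medians (0.0882) and without control 1 (0.149), control 2 (0.0692), control 3 (0.131), PIM 3 (0.0523), Pd 2 (0.0539), Pd 3 (0.0637), PIM-Pd 2 (0.156) or PIM-Pd 3 (0.109). Without the 3 arrays of smallest spread the difference was 0.50 (adjusted p = 0.0278).

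Other genes of surface NAD and adenosine metabolism are of interest beside CD38. Lists of genes related to the 9 members held 171 further genes, of which 23 could be tied to a probe set, and only because the study's own comparison of these samples had listed them as changed. Their values are therefore descriptions and not independent evidence of direction, and no share of a list was counted. NT5E (CD73), the ectoenzyme that makes adenosine from AMP, had signals of 5.57, 5.77 and 6.14 in control, 7.93, 7.83 and 8.40 in Pd, and 8.06, 7.69 and 8.10 in PIM-Pd. All 6 arrays with Pd were above all control arrays. The log2 differences were 2.23 in Pd (SE 0.18, adjusted p = 1.02e-05) and 2.12 in PIM-Pd (SE 0.18, adjusted p = 8.56e-06), and both were called under all 19 alternatives. PECAM1 (CD31), a ligand of CD38 that endothelial cells also carry, was 0.72 higher in PIM-Pd (SE 0.22, adjusted p = 0.0494), a call that held under 8 of 19 alternatives. It rested largely on PIM-Pd 3, at 6.20 against 5.39 and 5.23 for PIM-Pd 1 and 2, and without that array the difference was 0.43 (adjusted p = 0.193). In Pd its difference of 0.67 had an adjusted p of 0.1, or 0.0368 with the replicate block.

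SLAMF7 and CD48 belong to the SLAM family of immune cell receptors, and in RefSeq's gene order (GRCh38.p14) they lie on the same chromosome with 1 protein-coding gene between them. SLAMF7 signals were 10.13, 9.79 and 9.90 in control, 10.08, 9.53 and 10.09 in PIM, 9.44, 9.37 and 9.51 in Pd, and 9.95, 9.56 and 9.73 in PIM-Pd. The 3 Pd arrays were below every array of the other groups, and the other 3 groups overlapped with each other. From low to high the means were Pd (9.44 ± 0.07), PIM-Pd (9.75 ± 0.19), PIM (9.90 ± 0.32) and control (9.94 ± 0.17). The Pd difference from control was -0.50 (SE 0.16, 0.71-fold, 95% interval 0.56 to 0.89) and negative in 3 of 3 experiments (-0.69, -0.42 and -0.40), but it missed the threshold with an adjusted p of 0.0839. With the replicate block, which pairs arrays of the same experiment, the adjusted p was 0.026, and 2 of the 9 genes (SLAMF7 and GPRC5D) were called beside 1181 probe sets (6.67%). It also fell under the threshold with only the 2 groups compared in the fit (0.0236), with a variance trend (0.0444), with array weights (0.0289), without PIM 2 (0.0306) and without the 3 arrays of smallest spread (0.0211); over the 19 alternatives it ranged from 0.0211 to 0.301. In PIM-Pd the SLAMF7 difference was -0.19 (95% interval -0.52 to 0.14, adjusted p = 0.596), and it spanned -0.29 to -0.096 with 1 array left out.

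CD48, a GPI-anchored ligand of the receptor 2B4 on NK cells, had signals of 9.84, 9.93 and 10.01 in control, 9.79, 10.20 and 10.11 in PIM, 9.88, 9.76 and 9.76 in Pd, and 9.74, 9.62 and 9.81 in PIM-Pd. The PIM-Pd arrays were the lowest group on average and did not overlap with control, by a margin of 9.81 against 9.84. None of its differences from control passed the test, with 0.10 in PIM, -0.13 in Pd and -0.21 in PIM-Pd (adjusted p = 0.926, 0.691 and 0.384). Of the other SLAM family members, LY9 (CD229), a self-binding receptor that plasma cells carry, could be named. Its signals rose from 7.51 to 7.62 in control to 8.06 to 8.18 in Pd, a difference of 0.56 (SE 0.14, adjusted p = 0.0303) called under 13 of 19 alternatives, and to 8.11 to 8.48 in PIM-Pd, a difference of 0.70 (SE 0.14, adjusted p = 0.00497) called under all 19.

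TNFRSF17 (BCMA) and TNFRSF13B (TACI) are receptors of the tumour necrosis factor receptor superfamily that bind APRIL and BAFF, and BCMA is shed from the surface by gamma-secretase. TNFRSF17 signals were 9.33, 9.28 and 9.37 in control, 9.28, 9.47 and 9.22 in PIM, 9.34, 9.33 and 9.09 in Pd, and 9.64, 9.46 and 9.65 in PIM-Pd. The PIM-Pd arrays were above all control and Pd arrays and overlapped with PIM array 2. The difference from control was 0.26 in PIM-Pd (SE 0.11, 95% interval 0.02 to 0.50), positive in 3 of 3 experiments, and it did not pass the test (adjusted p = 0.207); the values were -0.07 in Pd and 0.00 in PIM (adjusted p = 0.857 and 0.998). TNFRSF13B signals were 8.08, 8.17 and 8.14 in control, 8.06, 8.24 and 8.18 in PIM, 7.98, 8.46 and 8.44 in Pd, and 8.024, 7.997 and 7.989 in PIM-Pd. Pd had the widest spread, since array 1 was the lowest of all 12 and arrays 2 and 3 were the highest. Its differences of 0.03 in PIM, 0.16 in Pd and -0.13 in PIM-Pd did not pass the test (adjusted p = 0.985, 0.611 and 0.691).

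Of the ligands and adaptors around these receptors, TNFSF13B (BAFF) and TRAF5 could be named. TNFSF13B had low signals of 3.24 to 3.29 in control and 3.56 to 4.12 in PIM-Pd, a difference of 0.64 (SE 0.15, adjusted p = 0.0145) whose call was lost without control 1 (0.0513), PIM-Pd 1 (0.0581) or PIM-Pd 2 (0.064); it is among the dimmest 25% of probe sets, and signal above background was not tested. TRAF5, a cytoplasmic adaptor of receptors of this superfamily, was at 6.38, 6.02 and 6.21 in control and at 5.62, 5.67 and 5.51 in PIM-Pd, and fell by 0.60 (SE 0.14, adjusted p = 0.0102; 0.0556 without control 1). In Pd its difference of -0.46 had an adjusted p of 0.0685, or 0.0467 with the replicate block. In PIM its signals of 6.68, 6.43 and 6.77 were all above the control arrays, with a difference of 0.42 that did not pass the test (adjusted p = 0.667). NCSTN, a subunit of gamma-secretase, differed from control by 0.39 in Pd and 0.35 in PIM-Pd and passed the test in neither (adjusted p = 0.0879 and 0.0959; 0.0409 in Pd without the 3 arrays of smallest spread).

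GPRC5D is a receptor with no known ligand whose transcript is high in plasma cells and in hair follicles. Its signals were 10.71, 10.87 and 11.03 in control, 10.46, 10.72 and 11.03 in PIM, 11.32, 11.54 and 11.54 in Pd, and 11.52, 11.35 and 11.71 in PIM-Pd. The 6 arrays that received pomalidomide and dexamethasone were above the 6 that did not, with no overlap, while Pd and PIM-Pd overlapped with each other, as did control and PIM. In order, the means were PIM (10.74 ± 0.29), control (10.87 ± 0.16), Pd (11.47 ± 0.12) and PIM-Pd (11.53 ± 0.18). Against control GPRC5D was 1.51-fold higher in Pd (log2 difference 0.60, SE 0.15, 95% interval of the fold 1.21 to 1.89, adjusted p = 0.031) and 1.58-fold higher in PIM-Pd (0.66, SE 0.15, 1.26 to 1.97, adjusted p = 0.0112). Both differences were positive in 3 of 3 experiments, from 0.50 to 0.68 in Pd and from 0.49 to 0.81 in PIM-Pd. In PIM the difference was -0.13 (95% interval -0.45 to 0.19, adjusted p = 0.921).

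Over 19 alternatives the adjusted p of GPRC5D ranged from 0.0072 to 0.141 in Pd and from 0.0023 to 0.0579 in PIM-Pd. The call in Pd was lost without control 1 (0.141), control 2 (0.0809), Pd 1 (0.0509), Pd 2 (0.0962) or Pd 3 (0.121), and the call in PIM-Pd without control 1 (0.0579) or PIM-Pd 3 (0.0549). Without the 3 arrays of smallest spread the differences were 0.60 in Pd and 0.66 in PIM-Pd (adjusted p = 0.016 and 0.0154). Among all probe sets, 95.8% had a smaller absolute difference than GPRC5D in Pd and 95% in PIM-Pd; the corresponding shares for CD38 were 61.2% and 87.2%.

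**Figure D3:**
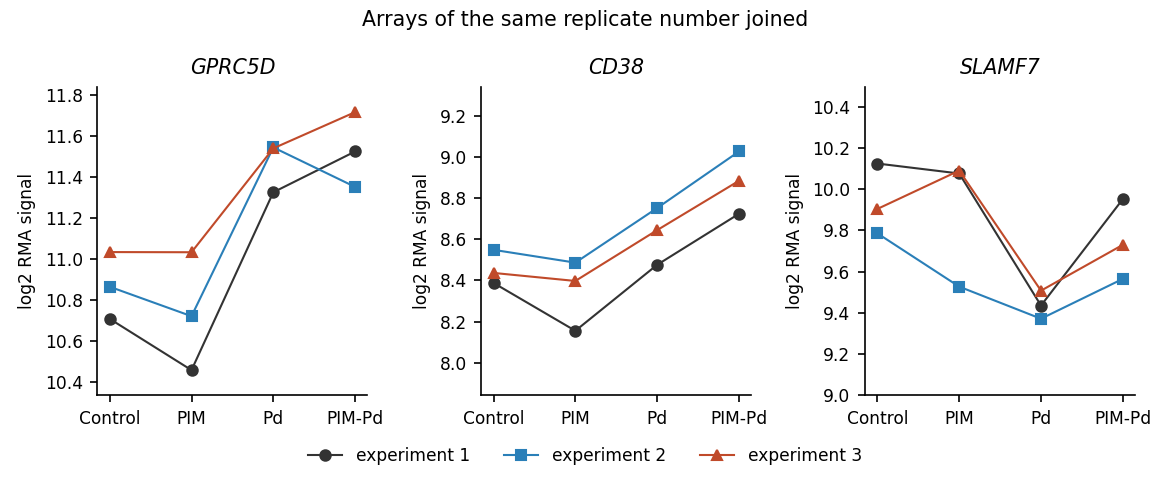
Log2 RMA signal (vertical axis) of GPRC5D, CD38 and SLAMF7 in the 4 groups, with lines joining arrays of the same experiment. In each of the 3 experiments GPRC5D is higher in Pd and PIM-Pd than in control and PIM, CD38 is highest in PIM-Pd, and SLAMF7 is lowest in Pd.

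The promoters of GPRC5D and CD38 are printed because these are the 2 members whose mRNA passed the test. RefSeq promoter windows (GRCh38.p14, 250 bases before to 50 after the start) were found for 7 of the 9 genes, with 2 windows for SDC1; none was given for TNFRSF17 and SLAMF7. The windows were searched on both strands for the glucocorticoid receptor hexamer AGAACA, the interferon regulatory factor pattern GAAANNGAA, the Ikaros core TGGGAA and the E-box CACGTG, with no overlap between matches. Capitals mark the matches. GPRC5D lies at chr12:12952121-12952420 (- strand) and CD38 at chr4:15778078-15778377 (+ strand), each written 5′ to 3′ along its gene.
GPRC5D: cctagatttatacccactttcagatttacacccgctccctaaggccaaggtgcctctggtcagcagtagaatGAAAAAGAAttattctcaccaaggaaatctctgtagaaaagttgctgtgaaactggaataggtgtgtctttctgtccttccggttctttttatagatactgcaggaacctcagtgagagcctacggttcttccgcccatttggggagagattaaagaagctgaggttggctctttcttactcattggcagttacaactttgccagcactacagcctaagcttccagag
CD38: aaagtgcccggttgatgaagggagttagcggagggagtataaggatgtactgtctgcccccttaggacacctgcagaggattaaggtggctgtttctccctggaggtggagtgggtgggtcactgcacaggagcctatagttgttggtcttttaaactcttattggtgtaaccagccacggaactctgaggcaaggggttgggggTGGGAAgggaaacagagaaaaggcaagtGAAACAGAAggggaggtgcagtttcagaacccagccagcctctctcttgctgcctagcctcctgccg
Each of the 2 windows held 1 match to GAAANNGAA, a pattern found in 8.11% of all 35116 promoter windows, and it was absent from the windows of the other 5 genes. CD38 also held 1 match to TGGGAA (24% of all windows), as did CD48 and FCRL5. AGAACA, present in 14.8% of all windows, was matched only in CD48, and CACGTG (7.26%) in none of the 8 windows. A match describes these letters and shows no binding.

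SDC1 (CD138), the heparan sulfate proteoglycan by which plasma cells are commonly recognised, had signals of 9.41, 9.43 and 9.36 in control, 9.36, 9.42 and 9.38 in PIM, 9.33, 9.58 and 9.53 in Pd, and 9.25, 9.27 and 9.26 in PIM-Pd. The 3 PIM-Pd arrays were the lowest of the 12, between 9.25 and 9.27, and the difference from control of -0.14 (95% interval -0.36 to 0.07) did not pass the test (adjusted p = 0.513), nor did 0.08 in Pd (0.804) or -0.01 in PIM (0.993). Around SDC1, the heparan sulfate 6-O-endosulfatase SULF2 and the syndecan-binding adaptor SDCBP (syntenin) were called, and EXT1, a heparan sulfate polymerase subunit, could be named but was not called (0.43 in Pd and 0.20 in PIM-Pd, adjusted p = 0.219 and 0.634). SULF2 went from 10.04 to 10.12 in control to 10.63 to 10.78 in Pd, a difference of 0.61 (SE 0.11, adjusted p = 0.00358), and was 0.46 higher in PIM-Pd (SE 0.11, adjusted p = 0.013; called under 17 of 19 alternatives). SDCBP was 0.63 higher in PIM-Pd (SE 0.12, adjusted p = 0.00477), with 8.07 to 8.44 in control and 8.81 to 8.95 in PIM-Pd, and its difference of 0.37 in Pd did not pass the test (adjusted p = 0.11). The calls of SULF2 in Pd and SDCBP in PIM-Pd held under all 19 alternatives.

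FCRL5, an Fc receptor-like protein of B-lineage cells and the target of cevostamab, gave log2 signals of 3.407, 3.915 and 3.495 in control, 3.64, 3.67 and 3.71 in PIM, 3.68, 3.68 and 3.96 in Pd, and 3.63, 3.77 and 3.91 in PIM-Pd. All 12 signals were below the medians of their arrays, the control arrays alone spanned nearly the whole range, and whether the probe set was above background was not tested. Its differences from control of 0.07, 0.17 and 0.16 in PIM, Pd and PIM-Pd did not pass the test (adjusted p = 0.972, 0.643 and 0.611). CD47, the signal by which cells hold off phagocytosis through SIRP alpha on macrophages, had signals of 8.86, 8.35 and 8.48 in control, 8.87, 8.62 and 8.63 in PIM, 8.601, 8.413 and 8.003 in Pd, and 8.80, 8.64 and 8.33 in PIM-Pd. The PIM arrays were all above the Pd arrays, by a margin of 8.618 against 8.601, other pairs of groups overlapped, and array 1 was the highest of each group. Differences of 0.14, -0.23 and 0.02 did not pass the test (adjusted p = 0.929, 0.607 and 0.975). Leaving out 1 array moved the CD47 difference to between 0.035 and 0.29 in PIM and to between -0.36 and -0.059 in Pd. QPCT, a glutaminyl cyclase and paralogue of the enzyme that modifies CD47 for SIRP alpha binding, was 0.54 higher in Pd (SE 0.12, adjusted p = 0.0149; 0.07 without Pd 1 and 0.0594 without control 2) and 0.51 higher in PIM-Pd (SE 0.12, adjusted p = 0.0135; 0.0586 without PIM-Pd 1 and 0.0559 without control 2).

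The next comparisons ask what PIM447 adds to Pd, what Pd adds to PIM447, and whether the combination departs from the sum of its parts on the log2 scale. Between PIM-Pd and Pd, limma called 0 of the 9 genes, against 14 of all probe sets (0.0791%), and at an unadjusted p under 0.05 the counts were 3 of the 9 and 1518 of 17710. Those 3 were TNFRSF17 (0.33 higher in PIM-Pd, 95% interval 0.09 to 0.57, adjusted p = 0.423), TNFRSF13B (-0.29, -0.56 to -0.02, adjusted p = 0.542) and SDC1 (-0.22, -0.44 to -0.01, adjusted p = 0.568). TNFRSF17 was higher in PIM-Pd than in Pd in 3 of 3 experiments (0.30, 0.13 and 0.55), and SDC1 lower in 3 of 3 (-0.08, -0.31 and -0.27), while TNFRSF13B had mixed signs (0.05, -0.46 and -0.45). For GPRC5D the difference was 0.06 (95% interval -0.26 to 0.38, adjusted p = 0.945), for CD38 0.25 (-0.01 to 0.52, adjusted p = 0.592) and for SLAMF7 0.31 (-0.02 to 0.64, adjusted p = 0.606). CD38 (0.25, 0.27 and 0.24), SLAMF7 (0.52, 0.19 and 0.22) and CD47 (0.20, 0.22 and 0.32) were also higher in PIM-Pd in 3 of 3 experiments. The number of called probe sets was between 2 and 8 when any of the arrays other than PIM 2 and PIM-Pd 2 was left out.

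Between PIM-Pd and PIM, 2 of the 9 genes were called, beside 1003 probe sets (5.66%; 523 higher and 480 lower), a number that was 648 without PIM-Pd 3 and 455 with only the 2 groups compared in the fit. GPRC5D was 1.73-fold higher in PIM-Pd (log2 difference 0.79, SE 0.15, 95% interval of the fold 1.38 to 2.16, adjusted p = 0.00567) and CD38 1.45-fold (0.53, SE 0.12, 1.20 to 1.74, adjusted p = 0.0201), each in 3 of 3 experiments. The CD38 call was lost with only the 2 groups compared in the fit (0.0889) and without PIM 1 (0.087), PIM-Pd 2 (0.0799) or PIM-Pd 3 (0.0592). All 3 arrays of smallest spread enter this comparison. Without them, which leaves 1 PIM array that is assumed to vary like the other groups, the differences were 0.50 for GPRC5D and 0.56 for CD38 (adjusted p = 0.301 and 0.148), and 228 probe sets were called. SLAMF7 was at -0.15 (adjusted p = 0.734), or -0.44 without these arrays (0.299). CD48 was lower by -0.31 (95% interval -0.57 to -0.05, adjusted p = 0.176).

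The additivity contrast, (PIM-Pd minus Pd) minus (PIM minus control), called 0 of the 9 genes in limma, against 3 of all probe sets (0.0169%), and at an unadjusted p under 0.05 it gave 0 of the 9 and 1033 of 17710. The 3 probe sets were ARHGAP6 (-1.17), GRHL3 (-1.26) and EFEMP1 (1.46), each at an adjusted p of 0.0292, named after their values were seen, and 0 were called when any of the arrays other than PIM 2 and PIM-Pd 2 was left out. Values furthest from 0 among the members were 0.37 for CD38 (95% interval -0.01 to 0.74, adjusted p = 0.872), 0.35 for SLAMF7 (-0.12 to 0.82, adjusted p = 0.925; without the 3 arrays of smallest spread the log2 value was 0.057 and the adjusted p 0.982), 0.33 for TNFRSF17 (-0.01 to 0.67, adjusted p = 0.872) and -0.32 for TNFRSF13B (-0.71 to 0.06, adjusted p = 0.916). Intervals of this width do not show that the effects were additive.

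**Figure D4:**
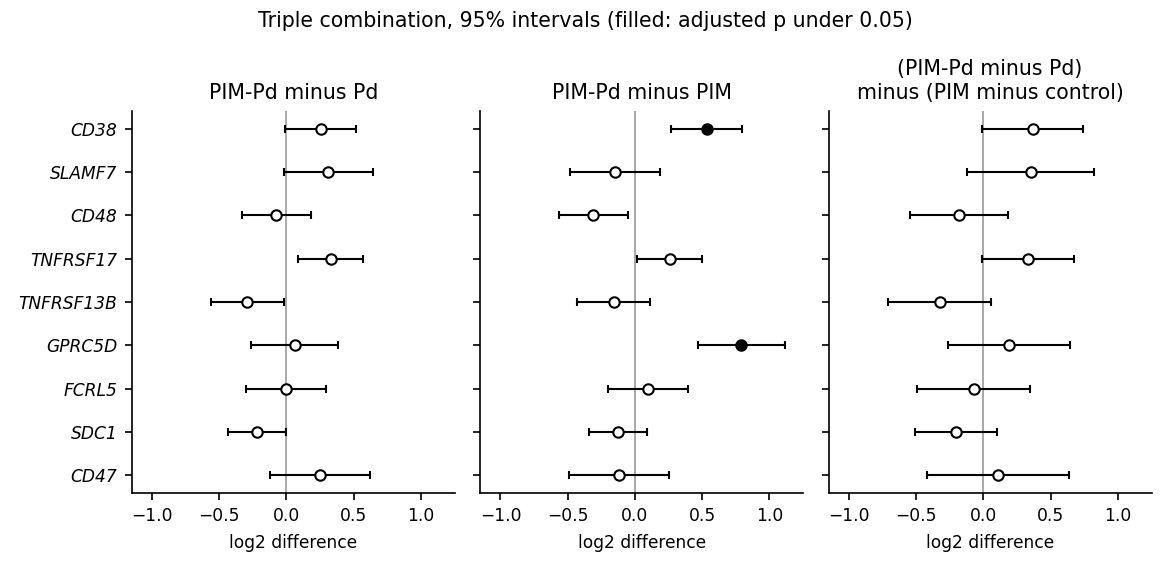
Log2 difference (horizontal axis) of the 9 genes for PIM-Pd minus Pd, PIM-Pd minus PIM and the additivity contrast, with 95% intervals from limma, n = 3 arrays per group; filled points passed the adjusted threshold. Only GPRC5D and CD38 in PIM-Pd minus PIM are filled.

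Other surface antigens are described under the same limit, that the study's comparison of these samples had listed them. NCAM1 (CD56), an adhesion molecule found on many myelomas, was at 5.82, 6.21 and 6.44 in control, 7.44, 7.45 and 7.71 in Pd, and 6.98, 6.84 and 6.56 in PIM-Pd. It was 1.38 higher in Pd (SE 0.18, adjusted p = 0.000389; called under all 19 alternatives) and 0.64 higher in PIM-Pd (adjusted p = 0.0382; called under 10 of 19; 0.0803 without the 3 arrays of smallest spread). LILRB4, an inhibitory receptor of the immunoglobulin superfamily, rose by 0.85 in Pd and 0.83 in PIM-Pd (adjusted p = 0.000782 and 0.000728). The transferrin receptor TFRC (CD71) fell from 9.05 to 9.29 in control to 8.30 to 8.50 in Pd and 7.43 to 8.09 in PIM-Pd, and the glutamine transporter SLC1A5 from 9.10 to 9.35 to 8.67 to 8.73 and 8.28 to 8.48. Their differences were -0.77 and -1.41 for TFRC (adjusted p = 0.00657 and 5.03e-05) and -0.54 and -0.84 for SLC1A5 (adjusted p = 0.00742 and 0.000207). CD320, the receptor for transcobalamin-bound vitamin B12, was lower in PIM-Pd by -0.69 (adjusted p = 0.00103). In Pd it was lower by -0.40 (adjusted p = 0.0486), a call that held under 6 of 19 alternatives. The replicate block was among those that lost this call (adjusted p = 0.0521). The calls of LILRB4, TFRC and SLC1A5 in both comparisons and that of CD320 in PIM-Pd held under all 19 alternatives.

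CD63, a tetraspanin of lysosomes, was 0.68 higher in Pd (adjusted p = 0.0334; called under 14 of 19 alternatives), and its difference of 0.57 in PIM-Pd did not pass the test (adjusted p = 0.0532; 0.0256 with the replicate block, called under 6 of 19). CD74, the invariant chain of MHC class II, was 0.52 higher in Pd (adjusted p = 0.0247; called under 14 of 19), and its difference of 0.36 in PIM-Pd did not pass (adjusted p = 0.0961). CLEC2D, a ligand of an NK cell receptor, was 0.56 higher in PIM-Pd (adjusted p = 0.0274, called under 15 of 19). CLEC2D signals of 3.93 to 4.25 in control and 4.43 to 4.84 in PIM-Pd were below the medians of their arrays, and signal above background was not tested. HHLA2, a ligand of T and NK cell receptors, had the low control mean of 2.94, with 2.91% of probe sets lower, and signal above background was not tested. Its difference of 0.44 in Pd (adjusted p = 0.0322) was called under 12 of 18 alternatives, as it is among the dimmest 25% of probe sets and drops out when these are left out. The third gene of this list with a known symbol, CD58, a ligand of CD2, was not called, at -0.41 in Pd (adjusted p = 0.0703; called under 4 of 19 alternatives, with 0.0403 without the 3 arrays of smallest spread) and 0.07 in PIM-Pd (adjusted p = 0.84). Of the lineage genes fixed as markers, IRF4, the transcription factor on which myeloma cells depend, had signals of 9.94 to 10.24 in control, 8.90 to 9.03 in Pd and 8.89 to 9.01 in PIM-Pd. It fell by 1.10 in Pd and 1.12 in PIM-Pd (adjusted p = 0.000192 and 0.000118), under all 19 alternatives. The B cell marker CR2 (CD21) was lower by -0.80 in Pd and -0.88 in PIM-Pd (adjusted p = 0.0475 and 0.0203; called under 11 and 16 of 19). The T cell marker CD3E differed by -0.57 in PIM-Pd and did not pass the test (adjusted p = 0.0573), but did with the replicate block (0.0482) and without the 3 arrays of smallest spread (0.0124), and under 8 of 19 alternatives in all. In Pd its difference was -0.47 (adjusted p = 0.166). The control mean of CD3E was 4.63, with 47% of probe sets lower, and signal above background was not tested.

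**Figure D5:**
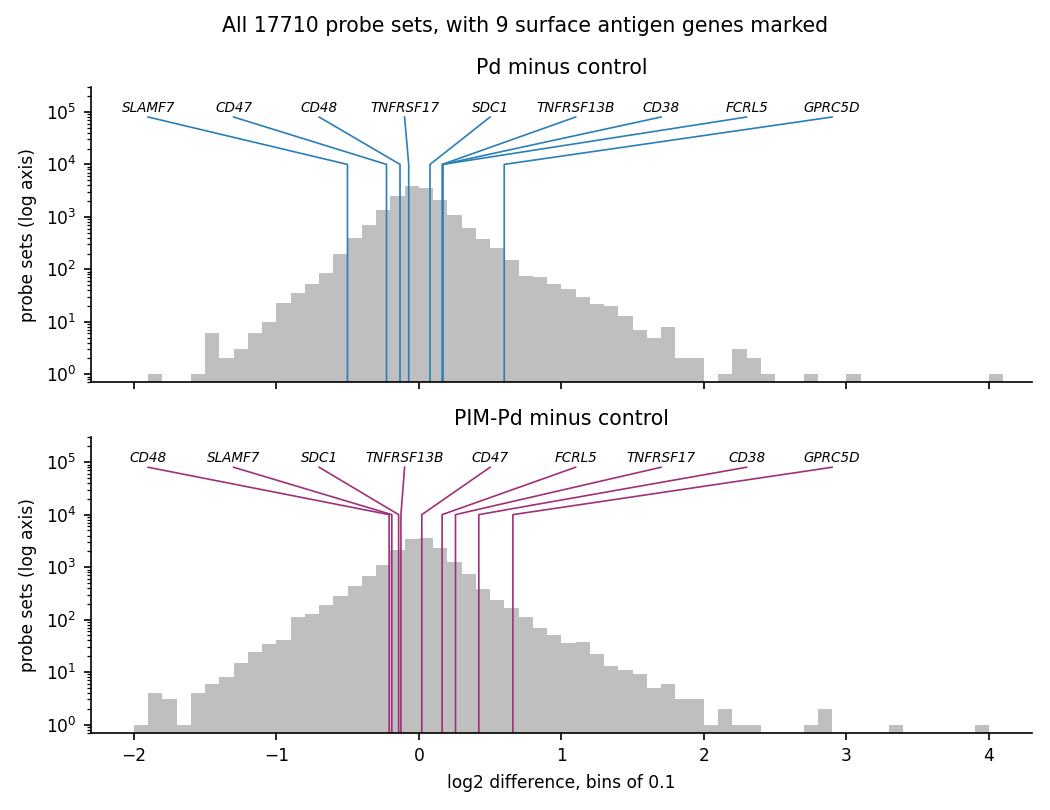
Number of probe sets (vertical log axis) by log2 difference from control (horizontal axis, bins of 0.1) in Pd and PIM-Pd for all 17710 probe sets, with lines at the 9 genes. Most of the 9 lie near the middle of the distribution, GPRC5D at 0.60 and 0.66 lies toward its upper side, and SLAMF7 at -0.50 in Pd toward its lower side.

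The named probe sets whose signals followed those of the called members most closely over the 12 arrays were found by Pearson correlation. For GPRC5D they were NHSL1 (r = 0.98) and KCNS3, a potassium channel subunit (r = 0.97), and for CD38 they were AKR1C3, an aldo-keto reductase of steroid and prostaglandin metabolism (r = 0.94), and GPSM2, a regulator of spindle orientation (r = 0.93). Only probe sets with a known symbol were considered, and symbols were known only from the study's tables of genes changed between these samples, so these genes were selected for a difference by treatment and their differences below restate that selection; 0, 1, 0 and 3 probe sets of all, respectively, had a higher r with the same member. NHSL1 was 0.55 higher in Pd and 0.57 in PIM-Pd (adjusted p = 0.0155 and 0.00818), and KCNS3 0.86 and 0.97 (adjusted p = 0.015 and 0.0044). The calls in Pd were lost without control 1 (0.0755 for NHSL1 and 0.0697 for KCNS3) or Pd 3 (0.0725 and 0.084), and those in PIM-Pd held under all 19 alternatives. AKR1C3 was 1.27 higher in PIM-Pd (adjusted p = 0.000507) and differed by 0.33 in Pd (adjusted p = 0.393). GPSM2 was 0.42 higher in PIM-Pd (adjusted p = 0.0475; 0.0508 without the 3 arrays of smallest spread), a call that held under 5 of 19 alternatives, and differed by 0.12 in Pd (adjusted p = 0.747). The 12 arrays fall into 4 treatment groups, so they are not 12 independent conditions.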

How the data were processed

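Total RNA of 12 MM.1S cultures was hybridised by the authors to Affymetrix Clariom S human arrays. The authors deposited log2 values made with RMA (background correction, quantile normalisation, summary per gene) in oligo 1.44.0 under R 3.5.0 with a custom BrainArray Ensembl definition, version 22. Here the 17710 deposited log2 values per array were fitted without a filter in limma 3.58.1 (R 4.3.3; lmFit and eBayes on all 12 arrays, contrasts of group means, Benjamini-Hochberg adjustment over all probe sets); the methods' SAM was not run. The labels mark replicate numbers as pairs, so the number was a block in an alternative fit; deviations of same-numbered arrays from their group means correlated at -0.10 to 0.30 (median 0.10). Other alternatives used only the 2 groups compared, left out the dimmest 25% of probe sets, centred arrays on medians, used a variance trend or array weights, added a 2-fold minimum, or left out arrays. The members and gene lists were chosen with earlier results of these data known. All 23 related genes with a known symbol are named, including those beyond the planned limit of the largest called differences of each list, and the 2 named probe sets most correlated with each called member were added.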

Additional observations from a re-analysis of the deposited data

How the results depend on the processing

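For the 9 genes and 6 comparisons, 957 of the alternative values kept the direction and the side of the threshold, 23 lost the call, 6 gained one and 31 had the opposite sign. The number of members called in Pd against control (1) was 2 with only the 2 groups compared in the fit, with the replicate block, a variance trend, array weights and without the 3 arrays of smallest spread, 0 with at least 2-fold added, and 0 to 2 with 1 array left out. In PIM-Pd against control (2) it was 1 with only the 2 groups compared in the fit and with arrays centred on their medians, 0 with at least 2-fold added, and 0 to 2 with 1 array left out. In PIM-Pd against PIM (2) it was 1 with only the 2 groups compared in the fit, 0 with at least 2-fold added, 0 without the 3 arrays of smallest spread, and 1 to 2 with 1 array left out. The replicate block, which pairs arrays by experiment, changed no other call of a member than that of SLAMF7 in Pd.

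Probe sets called in Pd against control numbered 1516 with array weights, 191 with at least 2-fold added and 497 to 1049 with 1 array left out. In PIM-Pd against control they numbered 255 with at least 2-fold added and 1096 to 1771 with 1 array left out. In PIM-Pd against Pd they numbered 1 with only the 2 groups compared in the fit, 25 with a variance trend, 1 with at least 2-fold added, 3 without the 3 arrays of smallest spread and 2 to 15 with 1 array left out. In PIM-Pd against PIM they numbered 455 with only the 2 groups compared in the fit, 173 with at least 2-fold added, 228 without the 3 arrays of smallest spread and 648 to 953 with 1 array left out. For additivity they numbered 0 without the 3 arrays of smallest spread and 0 to 3 with 1 array left out. With the replicate block the counts were 0, 1181, 1934, 11, 1262 and 2 in the order PIM, Pd and PIM-Pd against control, PIM-Pd against Pd, PIM-Pd against PIM and additivity. Fewer arrays and groups leave fewer degrees of freedom; causes beyond that were not tested.

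Signs turned only for differences that had not passed the test. Without the 3 arrays of smallest spread GPRC5D and SLAMF7 were at 0.16 and 0.15 in PIM, CD47 at -0.084 in PIM-Pd, FCRL5 at 0.063 in PIM-Pd against Pd, and the additivity of GPRC5D was -0.10. With arrays centred on their medians CD47 in PIM-Pd was at -0.020, and with array weights FCRL5 in PIM-Pd against Pd was at 0.0080. With 1 array left out, PIM against control spanned -0.031 to 0.22 for FCRL5, -0.28 to 0.0081 for GPRC5D, -0.036 to 0.0010 for SDC1, -0.14 to 0.15 for SLAMF7, -0.0061 to 0.083 for TNFRSF13B and -0.076 to 0.049 for TNFRSF17. In the same way TNFRSF17 in Pd spanned -0.11 to 0.011, CD47 in PIM-Pd -0.085 to 0.17, FCRL5 and GPRC5D in PIM-Pd against Pd -0.074 to 0.088 and -0.032 to 0.15, CD47 in PIM-Pd against PIM -0.22 to 0.010, and additivity -0.061 to 0.24 for CD47 and -0.23 to 0.026 for FCRL5. The number of arrays limits the precision: the median 95% interval of a member's difference between groups reached 0.27 to either side, and FCRL5, with low signals, has no background measured here.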
